A study of Homo sapiens with 4 samples.

Results

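The comparison described here is CC-292 against control in REC-1 cells. REC-1 is an established human mantle cell lymphoma line, and CC-292 (spebrutinib) is a covalent inhibitor of Bruton tyrosine kinase, BTK. Members are the 2 REC-1 arrays among the 4 of the series, and every gene they measured, 10176 of 18239 genes with a probe set of their own. The control array is labelled REC-1 control at 48 h, and the other REC-1 cells with CC-292 for 48 h. Its title gives 1 mM CC-292 whereas the treatment protocol gives 1 uM, so the dose is uncertain. The remaining 2 arrays hold the same pair in another mantle cell lymphoma line, Z138, whose control title gives no time. No label names a vehicle, a genotype or the NF-kB mutational status that the series title relates to CC-292. Both REC-1 cultures were, per the labels, grown exponentially at 500000 cells per ml, and each array received 150 ng of total RNA. Each group is 1 array, so there was no replicate error and no test, and every difference is between 2 libraries.

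BTK passes the signal of the B-cell receptor from the kinases LYN and SYK to phospholipase C gamma, from which it branches to NF-kB, to MAP kinases and to calcium. Mantle cell lymphoma cells carry a translocation that drives the cyclin D1 gene, and many of them depend on B-cell receptor signalling. Genes induced within hours of receptor engagement include the NF-kB targets TNFAIP3 and CCL3 and the early response gene EGR1. The same signal also feeds growth through MYC, ribosome production and amino acid supply.

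Values are log2 signals per probe set, a set of array probes for 1 transcript region. A difference is CC-292 minus control, so 1 stands for 2-fold and 0.585 for 1.5-fold. A gene was called measured where its brightest probe set reached log2 4.63, the median of all values, on a REC-1 array. Signals given for a gene are those of this brightest probe set. A gene was called supported where 2 or more of its probe sets reached log2 6.6 on a REC-1 array (bright probe sets) and all of these differed in the same direction. The difference given for a supported gene is the median over its bright probe sets, with their range. That range is technical, since all probe sets of a gene read the same 2 libraries, with a pooled SD of 0.21 between bright probe sets of a gene. Levels of different probe sets are not comparable with each other.

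The arrays held a B-cell profile. MS4A1, the gene of CD20, read 11.74 in control and 11.80 with CC-292, and CD79B of the B-cell receptor read 11.65 and 11.79. CCND1, the cyclin D1 gene, read 11.87 and 11.94 on its brightest probe set, while its 3 dim probe sets were 0.14 to 0.73 lower. Of 36 markers of T, NK, myeloid, erythroid, stromal and epithelial cells, 6 reached the measured minimum, the highest being EPCAM at 4.96. The summed log2 signal of the T-cell markers was 35.76 in control and 34.88 with CC-292, that of the NK markers 22.75 and 22.90, and that of the myeloid markers 28.99 and 29.48. For erythroid markers it was 11.26 and 11.08, and for stromal and epithelial markers 25.80 and 25.89. An RNA quality measure differed slightly, since the 3' minus 5' signal of the beta-actin control probes was 0.77 in control and 0.53 with CC-292, and its part in the results was not tested. For GAPDH the same measure was -0.32 and -0.31. The 9 hybridization controls were lower on the CC-292 array by 0.03 to 0.19. Over all probe sets the 2 arrays correlated with a Pearson r of 0.987, across probe sets that are not independent replicates.

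Most genes differed little. Of the 10176 measured genes, 88 were at least 2-fold higher with CC-292 (0.865%) and 78 at least 2-fold lower (0.767%). At 1.5-fold the counts were 432 higher (4.25%) and 478 lower (4.7%). The median difference was -0.05, with 41.9% of genes above 0 and 58.1% below it. Quantile normalization and cyclic loess brought the share below 0 to 53.6% and 50.9%, so a value near 0 carries no direction. A common shift of most genes cannot be seen on arrays normalized to equal distributions. The scatter depended on brightness. The SD of the difference was 0.53 in the dimmest 20% of measured genes and 0.21 in the brightest 20%. Of the 166 genes that differed 2-fold either way (1.63%), 33 reached log2 6.6 and 9 were supported.

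**Figure D1:**
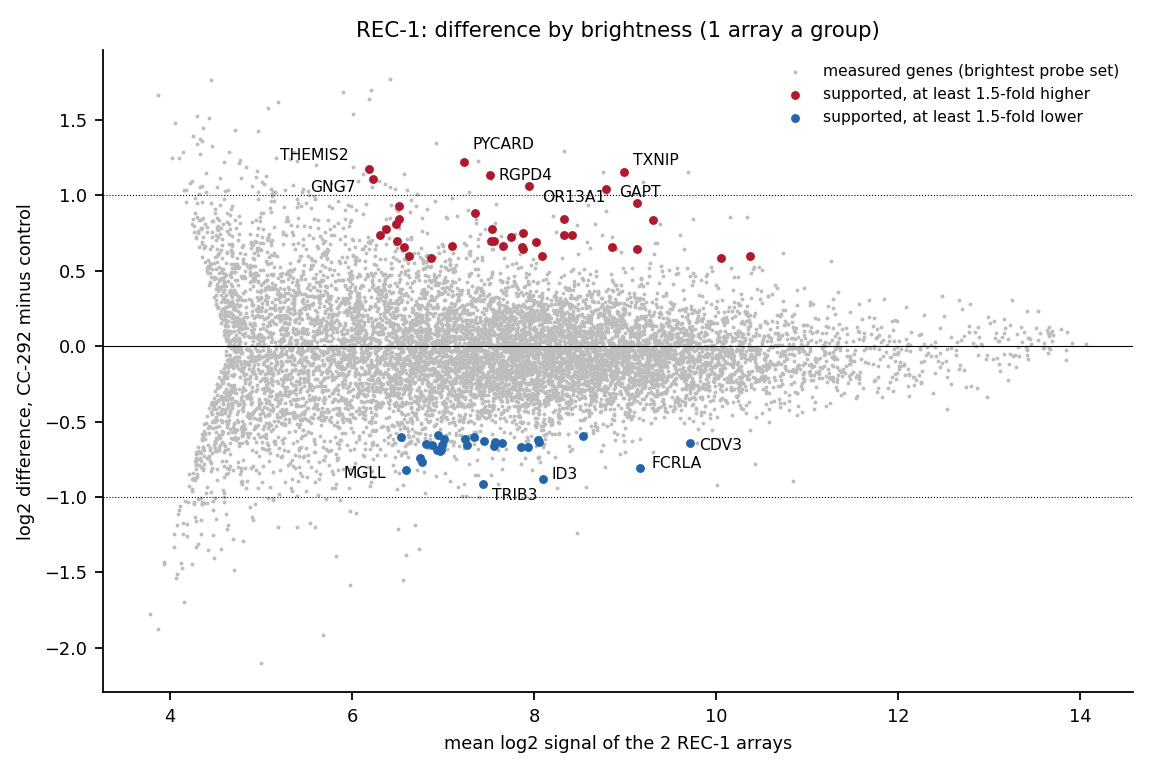
Difference between CC-292 and control (log2, vertical) against the mean log2 signal of the 2 REC-1 arrays (horizontal), for the 10176 measured genes in grey and for supported genes at least 1.5-fold higher (37, red) or lower (28, blue), placed at their median over bright probe sets. Dotted lines mark 2-fold; the grey cloud narrows from left to right, and 7 red points and no blue point lie beyond them.

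Of 3728 genes with 2 or more bright probe sets, 1926 were supported (51.7%), and 35.8% of these were above 0. At 1.5-fold, 37 supported genes were higher (0.992% of the 3728) and 28 lower (0.751%), a split of 56.9% higher. With cyclic loess this became 46 and 20, or 69.7% higher. In 17 of the 37 and in 6 of the 28, every bright probe set passed 1.5-fold. A probe set counted as bright if either array reached log2 6.6, which favours genes that are high on 1 array. In 17 of the 37 higher and 14 of the 28 lower genes, fewer than 2 probe sets reached the limit on both arrays, as in 199 of all 1926. Where the mean of both arrays had to reach it, an alternative added after the data were seen, 23 higher and 21 lower genes remained. Just inside that limit lay CRISP3 at 0.59 and ICAM2 at -0.59, and just outside it ROR1 at 0.58 and PKMYT1 at -0.58.

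The highest supported gene was PYCARD, the adaptor ASC of inflammasomes. It read 6.77 in control and 7.99 with CC-292 on one probe set and 6.47 and 7.69 on the other, a median difference of 1.22. THEMIS2, a signalling adaptor of B cells, read 5.88 and 6.94, a median of 1.18 over 2 probe sets (1.06 to 1.29). GNG7, a G-protein gamma subunit, read 5.95 and 6.80 and was 1.11 higher (0.84 to 1.38). GAPT, a transmembrane adaptor that binds GRB2, read 8.29 and 9.30, a median of 1.05 (1.01 to 1.09). PECAM1, an inhibitory surface receptor, read 6.05 and 6.77 and was 0.78 higher. The bright probe sets of THEMIS2, GNG7 and PECAM1 reached log2 6.6 with CC-292 only, as did those of RBL2, HEPACAM2 and DEPDC5, so their direction was in part set by the limit. In PYCARD, RGPD4 and OR13A1, 1 of the 2 bright probe sets reached it on both arrays and the other with CC-292 only.

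The fixed list of FOXO and quiescence genes had TXNIP and RBL2 among the 15 highest. TXNIP, which binds thioredoxin and restrains glucose uptake, was higher on all 5 of its probe sets. They read 8.44, 7.08, 7.71, 9.12 and 8.86 in control and 9.53, 8.73, 9.17, 10.27 and 9.98 with CC-292. Its median difference was 1.16 (1.09 to 1.65), over the most probe sets of the 7 supported genes that were 2-fold higher. RBL2, the pocket protein p130 of resting cells, read 6.09 and 7.12, with a median of 0.93 over 2 bright probe sets and a mean of 0.43 over all 4. DEPDC5, a subunit of the complex that holds mTORC1 in check, read 6.0 and 7.14 and was 0.81 higher (0.48 to 1.14). RASSF6, of the RASSF tumour suppressor family, read 8.99 and 9.68 and was 0.84 higher.

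RIPOR2, which acts on the cytoskeleton of lymphocytes, was higher on all 6 of its probe sets. The values were 8.19, 6.73, 6.11, 7.45, 6.26 and 6.95 in control and 9.34, 7.32, 7.83, 8.16, 7.11 and 7.87 with CC-292, a median of 0.88. The tetraspanin gene CD9 read 9.33 and 10.17 on its brightest probe set, and its 6 bright probe sets were 0.59 to 0.95 higher, with a median of 0.83. POLD4, a small subunit of DNA polymerase delta, read 8.66 and 9.75, with a median of 0.95 over 3 probe sets. OR13A1, an olfactory receptor gene, read 8.34 and 9.23 with a median of 1.06, and HEPACAM2, of the immunoglobulin superfamily, read 6.16 and 7.13 with a median of 0.85. RGPD4 was listed at 1.13, but its 2 bright probe sets gave 0.35 and 1.92 and its dim one 0.85. It has near-identical copies in the genome, so its signal cannot be assigned with certainty.

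**Figure D2:**
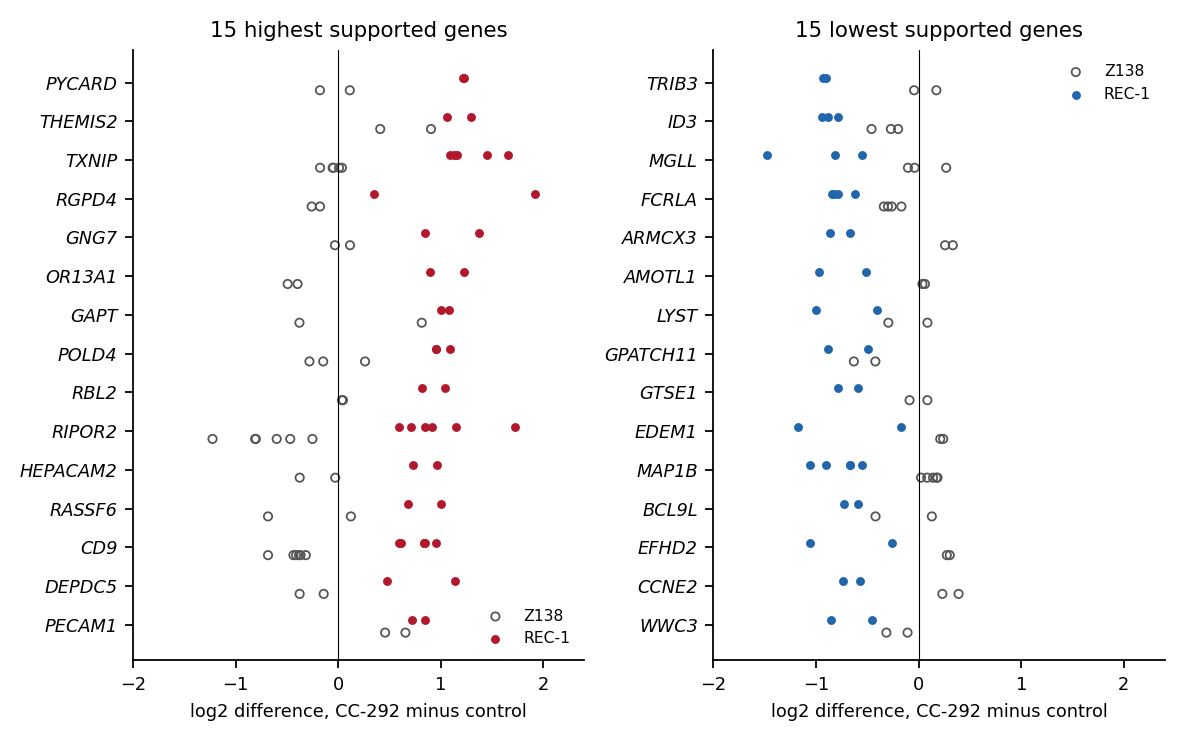
CC-292 minus control (log2, horizontal) for each bright probe set of the 15 highest (left) and 15 lowest (right) supported genes in REC-1, filled circles, with the same probe sets in Z138 as open circles; 1 array a group. The filled circles lie on a single side of 0 by the way the genes were chosen, whereas the open circles fall on both sides, with those of RIPOR2 and CD9 all below 0.

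At the other end, TRIB3, a pseudokinase induced by the factors ATF4 and CHOP, was the lowest supported gene. It read 9.03 in control and 8.10 with CC-292, a median difference of -0.92 over 2 probe sets (-0.93 to -0.90). ID3, an inhibitor of E-protein transcription factors, read 8.72 and 7.78, and its 3 probe sets differed by -0.94 to -0.79. FCRLA, a B-cell Fc receptor-like protein of the secretory pathway, read 10.34 and 9.72, with a median of -0.81 over 4 probe sets. MGLL, the lipase that degrades the endocannabinoid 2-AG, read 7.13 and 6.31, with a wide range of -1.47 to -0.55. No supported gene was 2-fold lower by its median, while 7 were 2-fold higher. Of these 7, only TXNIP and GAPT had 2 or more probe sets that reached the brightness limit on both arrays. PYCARD, RGPD4 and OR13A1 had 1 such probe set, and THEMIS2 and GNG7 had none. The limit could be met on the CC-292 array alone, so this contrast was in part set by it.

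CCNE2, a cyclin of the G1/S transition, read 7.36 and 6.78, with a median of -0.66 (-0.74 to -0.57). GTSE1, a mitotic microtubule-binding protein, read 7.49 and 6.90, with a median of -0.69. MAP1B, a microtubule-associated protein, was lower on all 5 probe sets (-1.06 to -0.55, median -0.67). EDEM1, which directs misfolded proteins to degradation, had a median of -0.67 that rested on probe sets at -1.17 and -0.17. EFHD2, a calcium-binding protein of lymphocytes, likewise had -1.06 and -0.26. LYST, the lysosomal trafficking gene, read 7.75 and 6.75 with a median of -0.70. AMOTL1 and WWC3, both linked to the Hippo pathway, had medians of -0.74 and -0.66. ARMCX3, GPATCH11 and BCL9L were lower by 0.77, 0.69 and 0.66, but the mean over all 4 probe sets of BCL9L was -0.16. For AMOTL1, WWC3, ARMCX3 and GPATCH11 the mean over all probe sets was -0.54, -0.31, -0.52 and -0.57. The bright probe sets of AMOTL1, ARMCX3 and MGLL reached the brightness limit in control only, so their direction was in part set by the limit. Of the 15 lowest genes, 10 had fewer than 2 probe sets that reached it on both arrays. CCNE2, GTSE1, EDEM1, EFHD2 and GPATCH11 were among these 10.

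Genes of the type I interferon response, antiviral effectors and the factors that induce them, were mostly higher with CC-292. The list held 31 measured genes, of which 26 were above 0 (all genes 41.9%), with a median of 0.30 (all genes -0.05). At 1.5-fold, 7 were higher (all genes 4.25%) and 1, IFI27 at -0.63, was lower (all genes 4.7%). The count above 0 was 26 under each scaling. Part of the list shares a sequence element to which STAT and IRF factors bind, searched here as GAAANNGAA on both strands in the RefSeq promoter windows (GRCh38.p14, from 250 bases before to 50 after a transcription start). Of the 27 list genes with a window, 18 held it in at least 1 of their windows (66.7%), against 9.86% of 27305 genes. The promoters of IFIT3 and ISG15 are shown because these genes had the largest differences of the list. Matches on either strand are in capitals, 2 in IFIT3 (chr10:89327747-89328046, + strand) and 3 overlapping ones in ISG15 (chr1:1013247-1013546, + strand).
IFIT3: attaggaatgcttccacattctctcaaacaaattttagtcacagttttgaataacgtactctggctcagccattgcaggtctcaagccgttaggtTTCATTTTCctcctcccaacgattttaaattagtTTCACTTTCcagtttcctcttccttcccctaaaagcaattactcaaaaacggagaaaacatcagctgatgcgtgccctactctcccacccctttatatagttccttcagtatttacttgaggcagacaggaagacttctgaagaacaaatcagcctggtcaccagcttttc
ISG15: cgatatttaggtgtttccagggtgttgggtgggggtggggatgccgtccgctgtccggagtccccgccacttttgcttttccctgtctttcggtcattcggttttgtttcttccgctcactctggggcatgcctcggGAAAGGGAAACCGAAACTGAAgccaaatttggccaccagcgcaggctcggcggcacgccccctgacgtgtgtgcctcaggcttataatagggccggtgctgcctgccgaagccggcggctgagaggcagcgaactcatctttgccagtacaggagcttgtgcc

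IFIT3, an antiviral effector, read 4.0 in control and 5.44 with CC-292 on its single probe set, a difference of 1.44. ISG15, a ubiquitin-like modifier, read 6.19 and 7.08, also on 1 probe set. The best measured member was TRIM22, an antiviral ubiquitin ligase, with all 6 probe sets higher. They read 6.14, 7.84, 8.39, 8.21, 7.93 and 9.73 in control and 6.99, 8.59, 9.12, 8.94, 8.4 and 10.58 with CC-292, a median of 0.74. IRF9, the DNA-binding subunit of the interferon-activated factor ISGF3, read 7.90 and 8.39, with a median of 0.73 over 3 bright probe sets. SP110, a nuclear body protein, had a median of 0.52 over 5 probe sets. The membrane proteins IFITM1 and IFITM2 read 9.33 and 9.98, and 10.58 and 10.88, with medians of 0.48 and 0.25. These 5 were the supported members, out of 9 with 2 or more bright probe sets, and all were above 0 (all supported genes 35.8%). Dimmer effectors included OAS1 (5.4 and 6.20), XAF1 (5.72 and 6.42) and HERC6 (4.55 and 5.23). All 6 measured sensors and regulators were above 0 (all genes 41.9%), whereas EIF2AK2, the kinase PKR, was 0.24 lower.

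**Figure D3:**
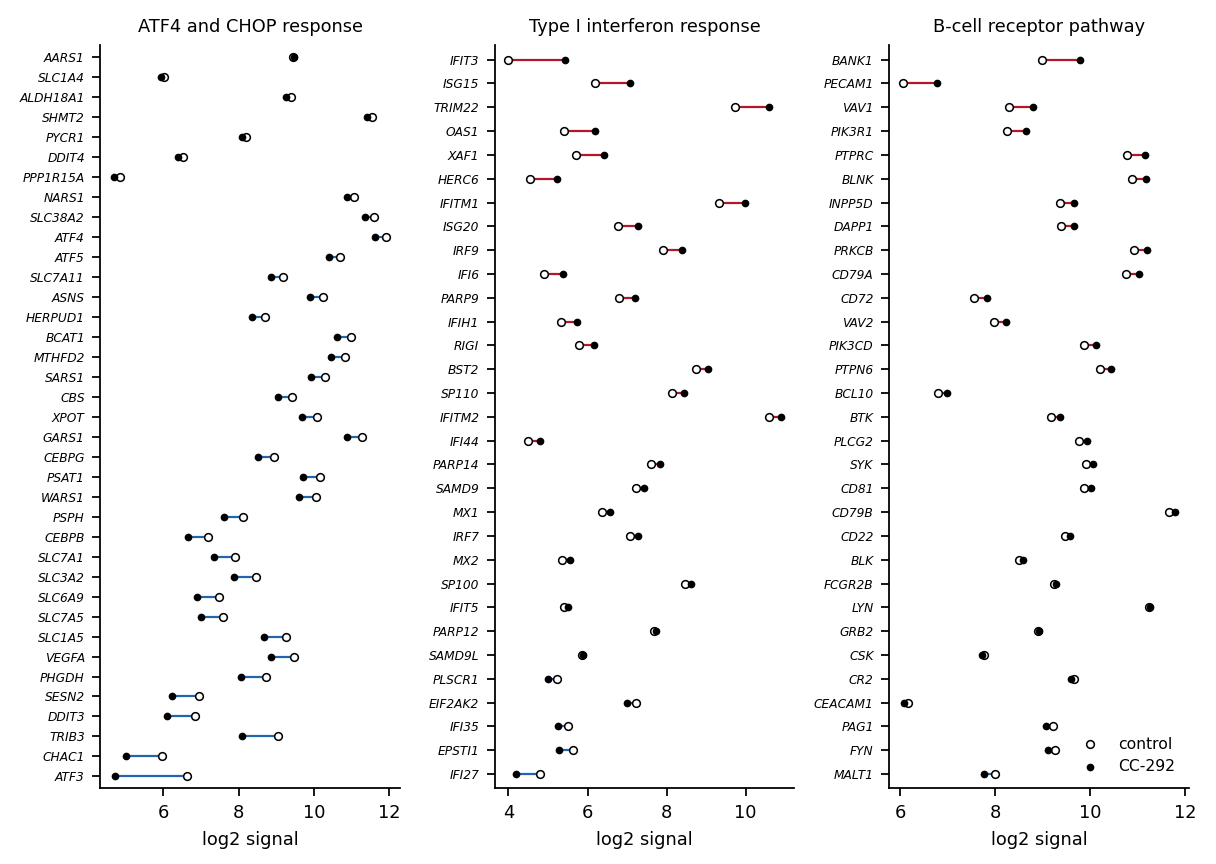
Log2 signal of the brightest probe set in control (open circles) and with CC-292 (filled circles) for every measured member of 3 gene lists, sorted by difference, with red lines where CC-292 was higher and blue where it was lower; 1 array a group. In the ATF4 and CHOP list 36 of 37 genes were lower, in the interferon list 26 of 31 were higher, and among B-cell receptor pathway components 25 of 31 were higher, most by small amounts.

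ATF4 and CHOP response genes had the lowest list median in the deposited values. With a minimum of log2 6.6, B-cell receptor and MAP kinase response genes were lower, at -0.43 against -0.42. ATF4 is a transcription factor whose translation increases under amino acid shortage or endoplasmic reticulum stress, and its targets make, import and charge amino acids. Of 37 measured members, 36 were below 0 (all genes 58.1%), with a median of -0.40. AARS1 was the exception at 0.03. At 1.5-fold, 10 members were lower (all genes 4.7%) and none higher (all genes 4.25%). All 19 supported members were below 0 (all supported genes 64.2%), with a median of -0.37 (all supported genes -0.13). The median was -0.36 with quantile normalization and -0.34 with cyclic loess. The composite element of ATF4 with its C/EBP partners, searched as TGATGNAA on both strands, was found in the windows of 13 of 32 members (40.6%) against 4.46% of all genes. ASNS (chr7:97872359-97872658, - strand) and CHAC1 (chr15:40953221-40953520, + strand) are shown as an enzyme and a stress target of the list that hold a match, 1 each, in capitals.
ASNS: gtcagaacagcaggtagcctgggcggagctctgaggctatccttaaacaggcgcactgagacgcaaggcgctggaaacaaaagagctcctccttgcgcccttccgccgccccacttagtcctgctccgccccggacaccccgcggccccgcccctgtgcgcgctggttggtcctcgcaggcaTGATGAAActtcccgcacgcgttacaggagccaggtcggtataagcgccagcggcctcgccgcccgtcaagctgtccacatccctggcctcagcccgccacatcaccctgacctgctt
CHAC1: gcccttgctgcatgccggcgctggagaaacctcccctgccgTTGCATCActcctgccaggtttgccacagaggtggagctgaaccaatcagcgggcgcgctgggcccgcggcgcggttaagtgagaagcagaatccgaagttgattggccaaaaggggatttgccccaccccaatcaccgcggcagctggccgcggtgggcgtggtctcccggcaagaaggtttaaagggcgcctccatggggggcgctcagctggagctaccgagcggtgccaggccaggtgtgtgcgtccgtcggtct

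Among the regulators, all 10 measured genes were below 0 (all genes 58.1%). ATF4 itself read 11.92 in control and 11.61 with CC-292, and DDIT3, which encodes CHOP, read 6.84 and 6.10. CEBPB, a partner of ATF4, read 7.17 and 6.64. ATF3, a stress-induced repressor, read 6.63 and 4.72 on its brightest probe set (-1.91), but the other 6 probe sets were dim and differed by -0.48 to -0.10. All 11 amino acid enzymes were lower too. ASNS, asparagine synthetase, read 10.24 and 9.89, with a median of -0.43 over 4 probe sets, and PSAT1 of serine synthesis had a median of -0.48 over 8. PHGDH, the first enzyme of that pathway, read 8.71 and 8.05. CBS, cystathionine beta-synthase, had a median of -0.52 over its 4 bright probe sets. All 8 transporters were below 0, among them the neutral amino acid carriers SLC7A5 (7.58 and 6.99) and SLC1A5 (9.27 and 8.68) and the arginine carrier SLC7A1, with a median of -0.51. CHAC1, which degrades glutathione, read 5.97 and 5.01.

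Cytosolic aminoacyl-tRNA synthetases, which charge tRNAs and of which several are ATF4 targets, were lower in 15 of 19 (all genes 58.1%). With quantile normalization or cyclic loess the count was 13 of 19 (all genes 53.6% and 50.9%). WARS1 and MARS1, for tryptophan and methionine, read 10.06 and 9.60, and 10.83 and 10.33. QARS1, for glutamine, was the highest of them, at 10.13 and 10.40 (quantile normalization and cyclic loess gave 6 and 7 of the 20 list genes above 0, the deposited values 4). With AIMP1, the 1 measured complex factor, the list median was -0.18. One-carbon and nucleotide synthesis showed a median of -0.17 over 28 genes, with MTHFD1L, a mitochondrial folate enzyme, at 9.08 and 8.39 and a median of -0.59 over 4 probe sets.

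Replication genes were lower almost throughout. Of 50 measured G1/S and DNA replication genes, 48 were below 0 (all genes 58.1%), with a median of -0.29. All 26 supported ones were below 0 (all supported genes 64.2%). The exceptions were CCND1 at 0.07 and LIG1, a DNA ligase, at 0.06. CCNE1, the other cyclin E, read 7.91 and 7.16. MCM10, a replication initiation factor, read 7.72 and 7.04, and E2F1, the transcription factor of this phase, 7.53 and 7.07. CDC25A, the phosphatase that activates CDK2, read 9.30, 7.63 and 7.27 in control and 8.67, 7.27 and 6.37 with CC-292, lower on each of its 3 probe sets. The loading factor CDC6 had a median of -0.53 over 2 probe sets. Differences were small in most of the list. Only CCNE1, MCM10 and CDC25A passed 1.5-fold on their brightest probe set, all lower (all genes 4.7%).

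E2F sites were searched on both strands as TTTGGCGC and TTTCCCGC. The former lay in the windows of 9 of 42 G1/S genes (21.4%) against 0.795% of all genes, and the latter in 10 of 42 (23.8%) against 1.98%. Among G2/M genes they lay in 2 and 1 of 41 (4.88% and 2.44%). CDC25A (chr3:48188368-48188667, - strand) is shown as the supported member with a TTTGGCGC that differed most, with its single match in capitals.
CDC25A: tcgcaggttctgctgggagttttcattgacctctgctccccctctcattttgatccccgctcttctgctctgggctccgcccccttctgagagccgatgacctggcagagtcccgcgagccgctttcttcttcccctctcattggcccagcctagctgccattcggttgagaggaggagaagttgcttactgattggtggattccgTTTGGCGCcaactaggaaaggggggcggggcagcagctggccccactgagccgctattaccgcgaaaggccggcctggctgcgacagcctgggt

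Mitotic genes shared the direction. Of 49 measured G2/M genes, 45 were below 0 (all genes 58.1%), with a median of -0.29, as large as that of the G1/S list. SPC25 of the kinetochore read 7.83 and 7.24 and was the sole member 1.5-fold lower on its brightest probe set (all genes 4.7%). HMMR and TPX2, both spindle proteins, read 10.08 and 9.52, and 9.91 and 9.40. PLK4, the kinase of centriole duplication, read 8.66 and 8.37 on its brightest probe set but had a median of -0.63 over 2. CDC25B was the supported exception, with a median of 0.24 over 5 probe sets (0.12 to 0.36), and PLK1, the mitotic kinase, read 6.89 and 7.0. The clustered histone genes had a median of -0.14 over 15, with near-identical copies that probe sets may not separate.

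Ribosome production genes were lower while ribosomal proteins were not. Of 62 measured genes of ribosome biogenesis and other MYC targets, 54 were below 0 (all genes 58.1%) and the median was -0.22. All 28 supported ones were below 0 (all supported genes 64.2%). POLR1B, a subunit of RNA polymerase I, read 8.43 and 7.78. PES1 and NLE1, of large subunit assembly, read 8.42 and 7.84, and 8.02 and 7.44. MYBBP1A, a nucleolar protein, had a median of -0.60 over 3 probe sets, and the assembly factor PNO1 -0.43 over 3. TAF1D, a polymerase I factor, was higher at 9.0 and 9.4. NCL and FBL, which encode nucleolin and fibrillarin, were 0.08 and 0.10 higher. By contrast 50 of 67 cytosolic ribosomal protein genes were above 0 (all genes 41.9%), with a median of 0.05, and this count was 43 with quantile normalization and 57 with cyclic loess. MYC itself, with 1 probe set, read 11.16 and 11.52. Its partner MAX had a median of 0.37 over 6 probe sets, and MXD3, an antagonist, read 7.17 and 6.55.

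The E-box CACGTG, which MYC and MAX bind, lay in the windows of 26 of 53 genes of this list (49.1%) against 8.77% of all genes. It reads the same on both strands. MRTO4 (chr1:19251555-19251854, + strand), a large subunit assembly factor, is shown as a supported member with a single match in its only window, in capitals. Its 2 probe sets read 9.41 and 7.54 in control and 9.01 and 7.09 with CC-292.
MRTO4: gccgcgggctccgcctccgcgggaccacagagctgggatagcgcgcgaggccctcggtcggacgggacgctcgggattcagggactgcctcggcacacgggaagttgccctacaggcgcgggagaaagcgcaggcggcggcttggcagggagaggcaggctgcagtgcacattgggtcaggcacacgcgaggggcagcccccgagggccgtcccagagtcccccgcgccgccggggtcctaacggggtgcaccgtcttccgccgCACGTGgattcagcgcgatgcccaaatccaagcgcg

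NF-kB target genes were lower as a list. Of 28 measured genes, 22 were below 0 (all genes 58.1%), with a median of -0.36. At 1.5-fold, 8 were lower (all genes 4.7%) and 2 higher (all genes 4.25%). The cytokine and chemokine genes differed most. CCL3, which draws T cells and macrophages, read 6.77 in control and 5.19 with CC-292 on 1 probe set. LTA, lymphotoxin alpha, read 6.53 and 5.43 on its brighter probe set, while LTB, lymphotoxin beta, was higher at 9.32 and 9.80. Of the 10 subunits and inhibitors, 9 were below 0. RELB, the subunit of the alternative pathway, read 7.69 and 6.77, TNFAIP3, the inhibitor A20, 7.75 and 7.0, and NFKB1, the p105 and p50 subunit, 9.48 and 9.42. NFKB2 did not reach the brightness minimum on the REC-1 arrays. The surface proteins CD83 (8.43 and 7.69) and CD40 (9.31 and 8.59) were lower, whereas CCR7, a homing receptor, read 4.63 and 5.59. Support was thin, with 8 supported members, of which 5 were below 0, near the share of all supported genes (64.2%).

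The NF-kB element, searched as GGGANNTTC on both strands, lay in the windows of 10 of 24 list genes (41.7%) against 5.09% of all genes. TNFAIP3 (chr6:137867009-137867308, + strand) is shown as an inhibitor with a match and both probe sets lower (7.75 and 6.56 in control, 7.0 and 5.96 with CC-292), its match in capitals.
TNFAIP3: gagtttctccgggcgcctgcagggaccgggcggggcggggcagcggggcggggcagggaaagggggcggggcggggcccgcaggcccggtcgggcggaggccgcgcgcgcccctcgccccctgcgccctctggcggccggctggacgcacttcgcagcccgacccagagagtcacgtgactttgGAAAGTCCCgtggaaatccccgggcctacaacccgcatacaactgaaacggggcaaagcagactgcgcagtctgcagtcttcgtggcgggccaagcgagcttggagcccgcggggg

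The alternative NF-kB pathway had no common direction. Its 12 measured genes had a median of -0.06 (-0.00 with cyclic loess). TRAF3, which keeps the kinase NIK low, had a median of -0.37 over 3 probe sets, of which the brightest differed by -0.07. MAP3K14, the NIK gene, was dim and its 2 probe sets disagreed, with 4.25 and 5.68 on one and 3.65 and 3.42 on the other. Genes that answer B-cell receptor and MAP kinase signals had a median of -0.24 over 30, with 8 at least 1.5-fold lower (all genes 4.7%) and none higher (all genes 4.25%). EGR1 read 6.6 and 5.94 and was lower on all 6 probe sets (-1.01 to -0.11). The kinase PIM1 read 8.04 and 7.35 and the phosphatase DUSP2 8.38 and 7.87. None of this list was supported, as 1 member had 2 bright probe sets.

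Components of the B-cell receptor pathway went the other way by small amounts. Of 31 measured genes, 25 were above 0 (all genes 41.9%), with a median of 0.17, and of 16 supported ones 14 were above 0 (all supported genes 35.8%), with a median of 0.28. BTK, the target of the drug, read 9.18 and 8.4 in control and 9.35 and 8.72 with CC-292 on its 2 probe sets. BANK1, an adaptor of calcium signalling, read 8.98 and 9.78, with a median of 0.64 over 3. VAV1, an exchange factor, read 8.29 and 8.80, with a median of 0.57. PTPRC, the phosphatase CD45, had a median of 0.39 over 5. SYK, upstream of BTK, had a median of 0.28. MALT1, the protease between BTK and NF-kB, was the lowest at 8.0 and 7.77. Higher members stood on both sides of the pathway, as 7 of 8 kinases and 7 of 10 inhibitors were above 0 (all genes 41.9%).

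Of 33 measured B-cell identity genes, 21 were above 0 (all genes 41.9%) and the median was 0.10. The count was 24 with quantile normalization or cyclic loess. Of 12 supported members, 7 were above 0 (all supported genes 35.8%) and 5 below. The largest supported difference was a lower one, FCRLA at -0.81. CD52 and CD37, surface proteins of mature B cells, read 10.98 and 11.55, and 9.66 and 10.14. EBF1, the early B-cell factor, read 9.51 and 9.99, and VPREB3 10.43 and 11.05. Plasma-cell and secretory genes had a median of -0.16 over 26. IRF4, needed for plasma cell differentiation, read 9.35 and 8.65 on its brighter probe set and 5.82 and 5.4 on the dimmer one. XBP1, which drives secretory capacity, read 8.41 and 7.82, and the chaperone HYOU1 had a median of -0.43 over 3 probe sets. JCHAIN, which joins IgM and IgA, was higher at 8.74 and 9.01. For the targets of lenalidomide, a drug that the series title also names, differences were small. CRBN, its receptor cereblon, read 7.37 and 7.68, with a median of 0.15 over 3 probe sets. IKZF3 had a median of 0.22 over 2 probe sets, and the 3 bright probe sets of IKZF1 disagreed (-0.24 to 0.07).

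FOXO targets and quiescence genes, which act against growth and are induced when PI3K and AKT signalling is low, had 23 of 33 above 0 (all genes 41.9%) and a median of 0.12. Of 13 supported members, 11 were above 0 (all supported genes 35.8%), with a median of 0.37. Beside TXNIP and RBL2, CDKN1B, the CDK inhibitor p27, read 8.70 and 9.10, with a median of 0.54 over 2 probe sets. YPEL5 had a median of 0.57. CCNG2 read 7.95 and 8.37 and TOB1 8.61 and 9.09, both antiproliferative genes. Dim members were on both sides, such as TRAF3IP3 (5.70 and 6.75) and GABARAPL1 (5.23 and 4.32). The E-box CACGTG lay in the windows of 3 of 29 genes of this list (10.3%), near the 8.77% of all genes. The PI3K, AKT and mTOR list was centred at -0.05.

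Of 13 measured chemotactic receptors, 11 were above 0 (all genes 41.9%). Of 5 chemokines, 4 were below 0 (all genes 58.1%), and the other, CXCL16, read 4.88 and 5.71. The cannabinoid receptors CNR1 and CNR2 read 8.37 and 9.11, and 4.74 and 5.78. GPR183, an oxysterol receptor that positions B cells in follicles, had a median of 0.53 over 2 probe sets. CXCR4 was an exception at 8.99 and 8.83. Of 20 Toll-like receptor genes, 15 were above 0 (all genes 41.9%), with a median of 0.14, and the 4 supported ones, TLR10, TLR4, MYD88 and SIGIRR, were 0.27 to 0.41 higher. TLR8 read 6.21 and 7.23. In the Fc receptor list, FCRL5 was lower at 8.97 and 8.41 and FCRL2 higher at 11.95 and 12.21. TNFRSF14, the receptor HVEM, had a median of 0.70 over 2 bright probe sets and of 0.34 as a mean over all its probe sets.

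Metabolic and protein turnover lists were modestly lower. Of 34 proteasome genes 30 were below 0 (all genes 58.1%), with a median of -0.18, and all 14 core subunits were below 0. The immunoproteasome differed, with 3 of 4 above 0 (all genes 41.9%), and PSMB8 read 8.78 and 9.15 with a median of 0.50. The median of glycolysis and hypoxia genes was -0.15, and all 10 supported ones were below 0 (all supported genes 64.2%). Among them was VEGFA, the angiogenic factor, at 9.47 and 8.86. ANKRD37 and ADM, both hypoxia targets, read 6.6 and 5.49, and 6.67 and 5.81. Cholesterol and fatty acid synthesis had a median of -0.17, with all 10 supported members below 0 (all supported genes 64.2%). ACLY, which makes cytosolic acetyl-CoA, read 9.74 and 9.37. Oxidative phosphorylation was close to all genes at -0.05. The list of heat shock and oxidative stress genes was centred at -0.16, with BAG3 at 7.44 and 6.85 and FKBP4 at 8.52 and 7.94.

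**Figure D4:**
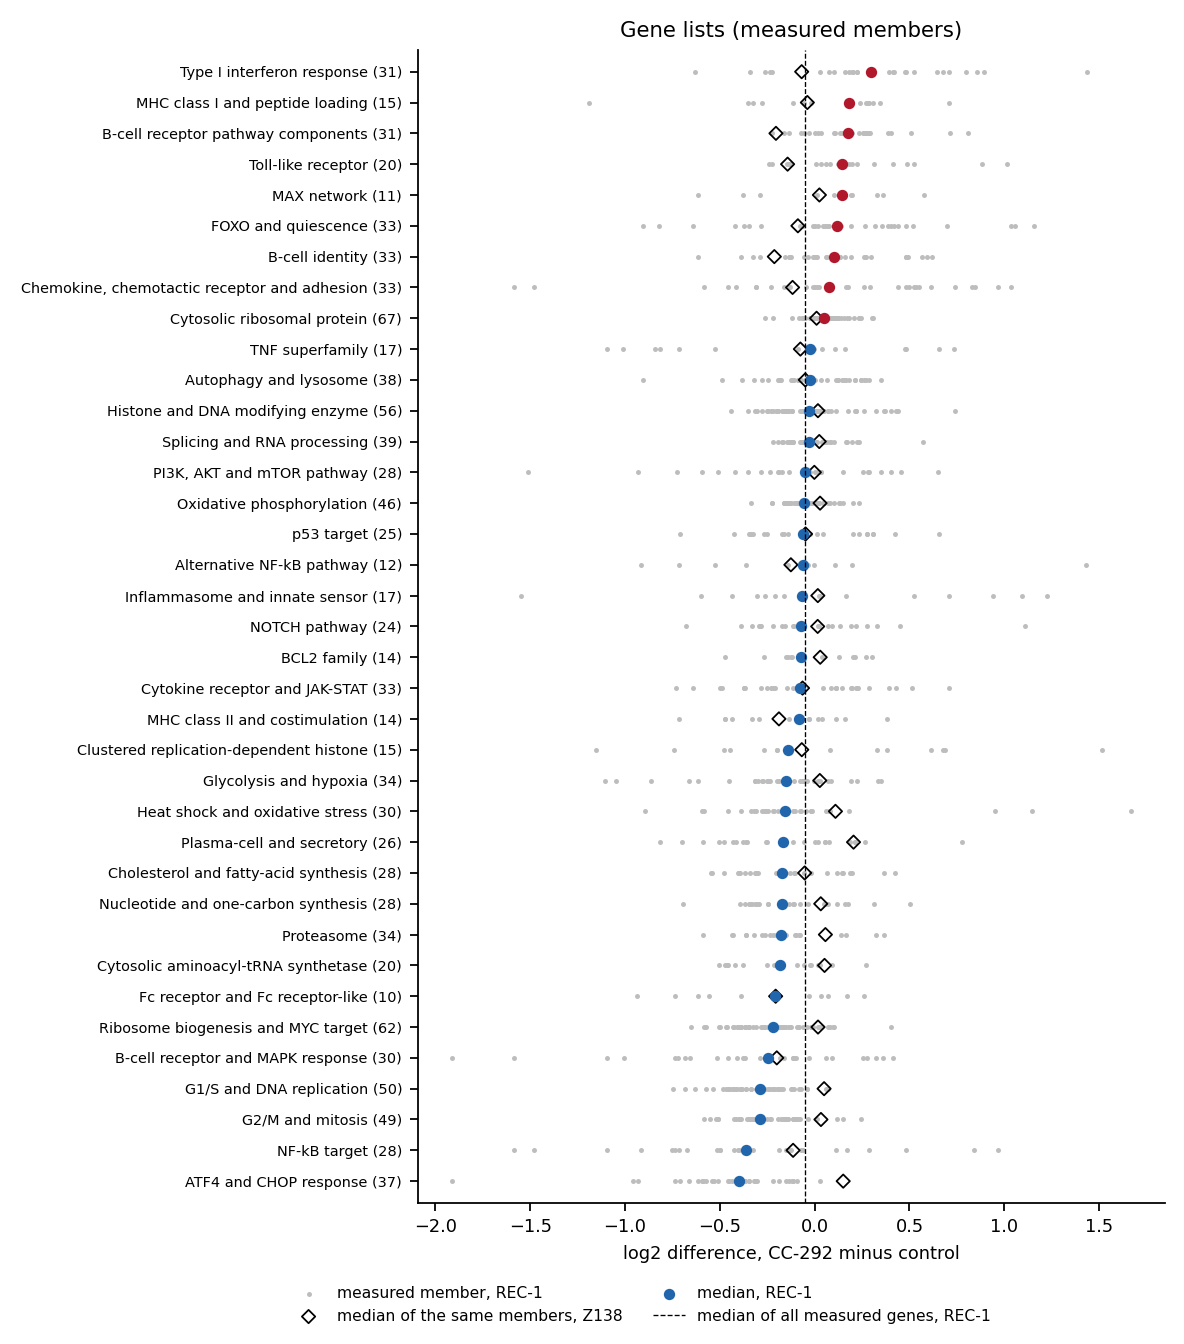
CC-292 minus control (log2, horizontal) for measured members of 37 gene lists in REC-1 (grey points, number of members in brackets), with the list median in REC-1 (filled circles, red above 0 and blue below) and the median of the same members in Z138 (open diamonds); the dashed line is the median of all measured genes in REC-1, -0.05. ATF4 and CHOP response genes lie lowest at -0.40 and interferon response genes highest at 0.30.

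Antigen presentation was mixed. Class I and peptide loading genes had a median of 0.18, with B2M, the common light chain, at 12.52 and 12.83, HLA-C at 8.72 and 9.01 and HLA-B at 8.07 and 7.74, and class I probe sets may read more than 1 of these related genes. HLA-F was dim and its probe sets disagreed. Class II and costimulation genes had a median of -0.08. In the inflammasome list, GSDMD, which forms the pore of pyroptosis, read 5.75 and 6.84 and NLRC3 8.13 and 9.07, beside PYCARD, while NLRP11 read 7.34 and 5.79. CASP1, the caspase of the complex, read 9.70 and 9.63. NOTCH genes were centred at -0.07, with the ligand JAG1 at 6.98 and 8.09. BCL2 family genes were centred at -0.07, with the survival genes BCL2 at 8.49 and 8.79 and MCL1 at 10.13 and 10.26. The probe sets of BCL2 disagreed, as another bright one read 8.66 and 8.46 and the mean over all 6 was 0.04. p53 targets were centred at -0.06, and MDM2 read 7.63 and 7.2. Lists of TNF, histone modifier, splicing and autophagy genes had medians of -0.03 to -0.02 that changed sign with cyclic loess, and cytokine receptor genes had -0.08.

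The largest differences of single probe sets lay in dim genes that had no second bright probe set. SLC16A4, a monocarboxylate transporter family member, read 5.54 in control and 7.31 with CC-292, and its other 3 probe sets were 1.04 to 1.30 higher. C16orf54, a predicted transmembrane protein, read 5.36 and 7.06, and its other 2 were 0.74 and 1.47 higher. LOXHD1 read 3.57 and 5.34, but its mean over 5 probe sets was 0.26. ANKRD36, which has near-identical copies, read 5.06 and 6.75, and MT1E, a metallothionein, 3.03 and 4.70. At the lower end, ERICH3 read 6.06 and 3.95, GCSAM 4.81 and 2.93, SHB, an adaptor of receptor signalling, 4.66 and 2.89, and HSD11B2, which inactivates cortisol, 5.00 and 3.31. ERICH3, HSD11B2 and MT1E had 1 probe set each.

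In Z138, where the difference has its own control array, 54.8% of the 1926 supported genes were above 0 and 45.2% below. Of the 37 genes higher in REC-1, 11 had a Z138 median above 0 and 26 below, with a median of -0.17. In Z138, 2 of them were 1.5-fold higher, THEMIS2 and NABP1, and 2 were 1.5-fold lower, RIPOR2 among them. Of the 28 lower genes, 12 were below 0 in Z138 and 16 above, and none passed 1.5-fold. Of all 1926 supported genes, 7 were 1.5-fold higher and 24 lower in Z138 by the same probe sets. TXNIP had a Z138 median of -0.05 and PYCARD of -0.03, against 1.16 and 1.22 in REC-1. Selection on the REC-1 values makes them the larger ones, and the difference between lines was not tested, as each line has 1 array per condition.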

How the data were processed

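The deposited values were log2 probe-set signals of Affymetrix arrays. Per the submitters' processing notes, the authors used RMA and Affymetrix Expression Console 1.1, with settings and genome build not given in the sources used here. Trizol served to extract the RNA, per the labels' protocols. The table held 49386 probe sets. The 45259 with a single gene symbol in the platform annotation were used, and the 1327 with several symbols and 2800 with none were left out. Arrays were assigned by title. With 1 array per group, differences of log2 values were described without any test, and that number limits the precision.

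The rule named the 15 highest and 15 lowest supported genes, the 5 highest and 5 lowest others, up to 4 members per list with the largest size of difference (supported first) and 25 genes fixed by name. Other list members, and NABP1, CRISP3 and PKMYT1, were named after their values were seen. The members and the 39 lists were chosen with earlier results of these data known, and lists overlap. Some items are not reported here. Motif matches were found in RefSeq promoter windows of 300 bases, counting a gene if any of its windows held a match. The scripts were tested on simulated data. Alternatives were brightness limits, quantile normalization and cyclic loess (limma 3.58.1, R 4.3.3), median centring and other uses of probe sets. Python 3.11.15, pandas 2.3.3 and numpy 2.4.6 were used.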

Additional observations from a re-analysis of the deposited data

Results flagged for a closer look

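In these results REC-1 and Z138 moved in opposite directions, and the difference between the lines was not tested. Items with a shared direction are not listed, such as NF-kB target genes, with medians of -0.36 in REC-1 and -0.11 in Z138. RIPOR2 had a median difference of 0.88 in REC-1 and -0.70 in Z138, with all 6 probe sets higher in the former and lower in the latter. IFIT3 differed by 1.44 and -0.66 on its single probe set. Among lists, ATF4 and CHOP response genes had medians of -0.40 and 0.15, plasma-cell and secretory genes -0.16 and 0.21, and heat shock and oxidative stress genes -0.16 and 0.11. The medians of B-cell receptor pathway components were 0.17 and -0.20, and those of Toll-like receptor genes 0.14 and -0.14.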

How the results depend on the processing

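No paired analysis was possible because each group has 1 array and the labels give no replicate numbers. The 88 genes at least 2-fold higher became 25 with a minimum of log2 6.6, 37 with all probe sets averaged and 36 with the median-difference probe set. The 78 lower genes became 147 without a brightness filter, 8 with log2 6.6 and 28 with the mean of all probe sets. The supported genes, 37 higher and 28 lower, became 116 and 96 with probe sets at the median of all values, 12 and 10 with at least 3 probe sets, and 17 and 6 where every probe set had to pass. The 37 became 23 where the mean of both arrays had to reach log2 6.6, chosen after seeing the data. All 37 and 20 of the 28 remained with cyclic loess. Of 39 lists, 25 kept the sign of their median under all 8 alternatives, and 175 of 190 named genes kept theirs. Most lists that changed sign had medians smaller than 0.1 in size. Among larger ones, the signs turned for class I genes (-0.0191) and Fc receptor genes (0.0326) at log2 6.6. They also turned for the markers of other cell types (-0.0636) with the median-difference probe set. With that probe set MAP3K14 was at -0.23, JAK2 at 0.13, CD4 at -0.0527 and HLA-F at 0.13, and with the mean of all probe sets HLA-F was at 0.10. The cause was not tested.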
